A study of Mus musculus with 18 samples.

Results

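The 10 genes described here encode the precursors of neuropeptides that mark interneurons and granule cells of the hippocampus: Npy, Sst, Vip, Cck, Penk, Pdyn, Tac1, Crh, Cort and Cartpt. They were chosen by gene symbol from the 22063 Ensembl gene identifiers measured, and all 10 had enough counts to be tested. RNA was sequenced from mouse hippocampus in 18 libraries of 4 groups. Libraries named S-V (n = 5) came from mice turned in 1 direction with their view blocked, D+V (n = 5) from mice turned in both directions with open view, and D-V (n = 5) from mice turned in both directions with their view blocked, a state the labels name after the Coriolis illusion. Libraries of the Control group (n = 3) came from mice the labels call blank controls. The study's design places the collection of tissue directly after the rotation, which served to disturb the sense of orientation. The labels give no strain, age, sex or number of animals behind a library, so that p-values measure the spread between these libraries, which may be partly technical.

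Neuropeptides are made as long precursors, cut by prohormone convertases, packed into dense core vesicles and released during sustained firing to act on G protein-coupled receptors. In the hippocampus, somatostatin (Sst), neuropeptide Y (Npy), cholecystokinin (Cck), vasoactive intestinal peptide (Vip) and cortistatin (Cort) mark classes of GABAergic interneurons, and Cck is also made by pyramidal cells. Prodynorphin (Pdyn) is a product of dentate granule cells, whose mossy fibres release dynorphin, and proenkephalin (Penk) is made by granule cells and by some interneurons. Cartpt, the precursor of CART peptides, is known from mossy cells of the human dentate hilus.

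Many neuropeptide genes are known to respond to cyclic AMP through a promoter element bound by CREB, and somatostatin is the gene in which it was first described. Promoter windows from 250 bases before to 50 bases after the annotated start were found for 8 of the 10 genes in the RefSeq table (build GRCm38.p6). Penk and Crh had no entry. The full element TGACGTCA, which reads the same on both strands, stood in the windows of Sst and Cartpt, against 2.03% of 27025 genes. Its core TGACG, searched on both strands as TGACG or CGTCA and contained in the full element, stood in 6 of the 8, namely Sst, Cartpt, Vip, Cck, Tac1 and Cort, against 23.0% of all genes. Npy and Pdyn held neither, and no match says only that these letters were not in this window. The 4 windows below are shown because they carry the full element (Sst and Cartpt) or, in a pair of interneuron genes, its core (Vip and Cck). They are printed 5′ to 3′ on the gene's strand, with the element in capitals. That of Sst lies at chr16:23890867-23890910 on the minus strand, that of Cartpt at chr13:99900770-99900813 on the minus strand, that of Vip at chr10:5639121-5639161 on the plus strand and that of Cck at chr9:121495719-121495759 on the minus strand.
Sst: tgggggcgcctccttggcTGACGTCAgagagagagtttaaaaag
Cartpt: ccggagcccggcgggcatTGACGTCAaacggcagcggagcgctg
Vip: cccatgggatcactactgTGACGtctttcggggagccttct
Cck: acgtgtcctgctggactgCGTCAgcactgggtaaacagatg
The element begins 48 bases before the start in Sst, 112 in Cartpt, 79 in Vip and 47 in Cck. Between D+V and Control, the log2 fold change was -0.07 (SE 0.12) in Sst, 0.30 (SE 0.17) in Vip and -0.12 (SE 0.09) in Cck. It was -0.14 (SE 0.18) in Tac1 and 0.13 (SE 0.22) in Cort. Cartpt was at -0.41 (SE 0.29), a value that rested on Control 1. None of the 6 was called, and a link between the element and these values was not tested.

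Library totals were 15.56 to 24.28 M estimated counts in S-V, 15.03 to 25.31 M in D+V, 15.39 to 21.43 M in D-V and 20.44 to 22.17 M in Control. Prox1 of dentate granule cells was present in every library, at 79.1 to 153.3 CPM (counts scaled to a common library size), as was Gad1 of GABAergic neurons, at 274.2 to 411.8 CPM. In 5 libraries (S-V 2 and 4, D+V 2, D-V 3 and 4) the summed level of choroid plexus markers was above 5000 CPM, and none of these was a Control. Relative levels followed the GC content of the transcript differently by library, with a rank correlation across genes of -0.239 to -0.028 in S-V, -0.351 to -0.073 in D+V, -0.132 to 0.309 in D-V and 0.126 to 0.416 in Control. D+V 1 stood apart from its group in the trend with transcript length, at -0.434 against 0.198 to 0.438 in the other D+V libraries.

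The 10 transcripts spanned a wide range of abundance. On the scale of CPM per kilobase of the longest coding transcript, Cck averaged 425.3 ± 39.2, Sst 284.7 ± 40.0, Npy 64.8 ± 8.89 and Penk 19.0 ± 4.84 (SD, n = 18). Cck exceeded Sst, Sst exceeded Npy and Npy exceeded Penk in 18 of 18 libraries each, and Cck ranked at the 99.5th percentile of all genes tested by level per length.

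**Figure D1:**
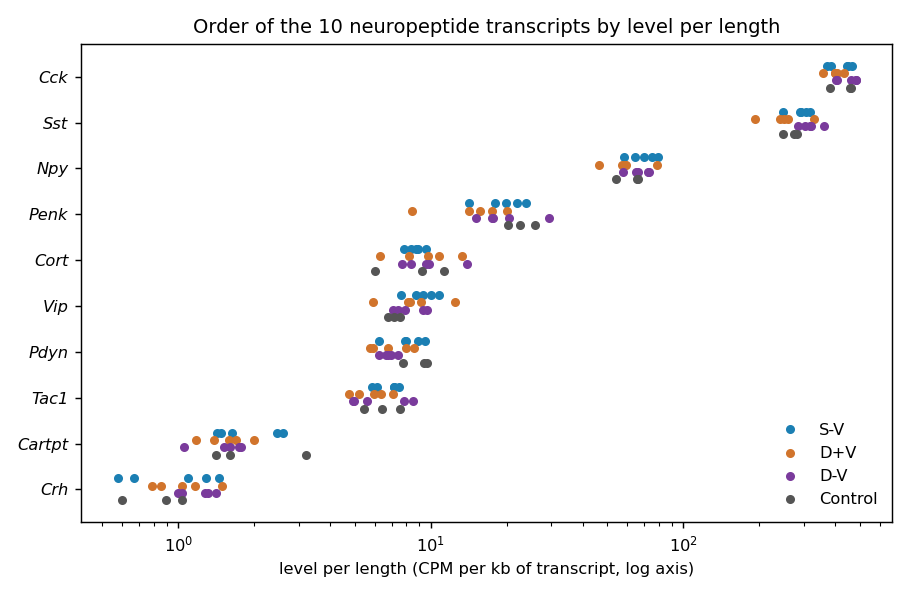
Level per length of each neuropeptide transcript, in CPM per kilobase on a log axis, with a point for each library coloured by group and genes ordered by their mean. Cck, Sst, Npy and Penk form 4 successive steps, Cort, Vip, Pdyn and Tac1 overlap one another, and Cartpt and Crh are lowest, at a mean of 1.74 and 1.05.

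Below these, Cort at 9.31 ± 2.05, Vip at 8.51 ± 1.60, Pdyn at 7.57 ± 1.26 and Tac1 at 6.35 ± 1.13 CPM per kilobase could not be put in a firm order. Cort was above Vip in 11 of 18 libraries, Vip above Pdyn in 12 and Pdyn above Tac1, the precursor of substance P, in 14. Cartpt at 1.74 ± 0.531 and Crh, the precursor of corticotropin-releasing hormone, at 1.05 ± 0.286 CPM per kilobase were the least abundant, with 20 to 90 and 13 to 39 counts per library. Cartpt was above Crh in 17 of 18 libraries.

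**Figure D2:**
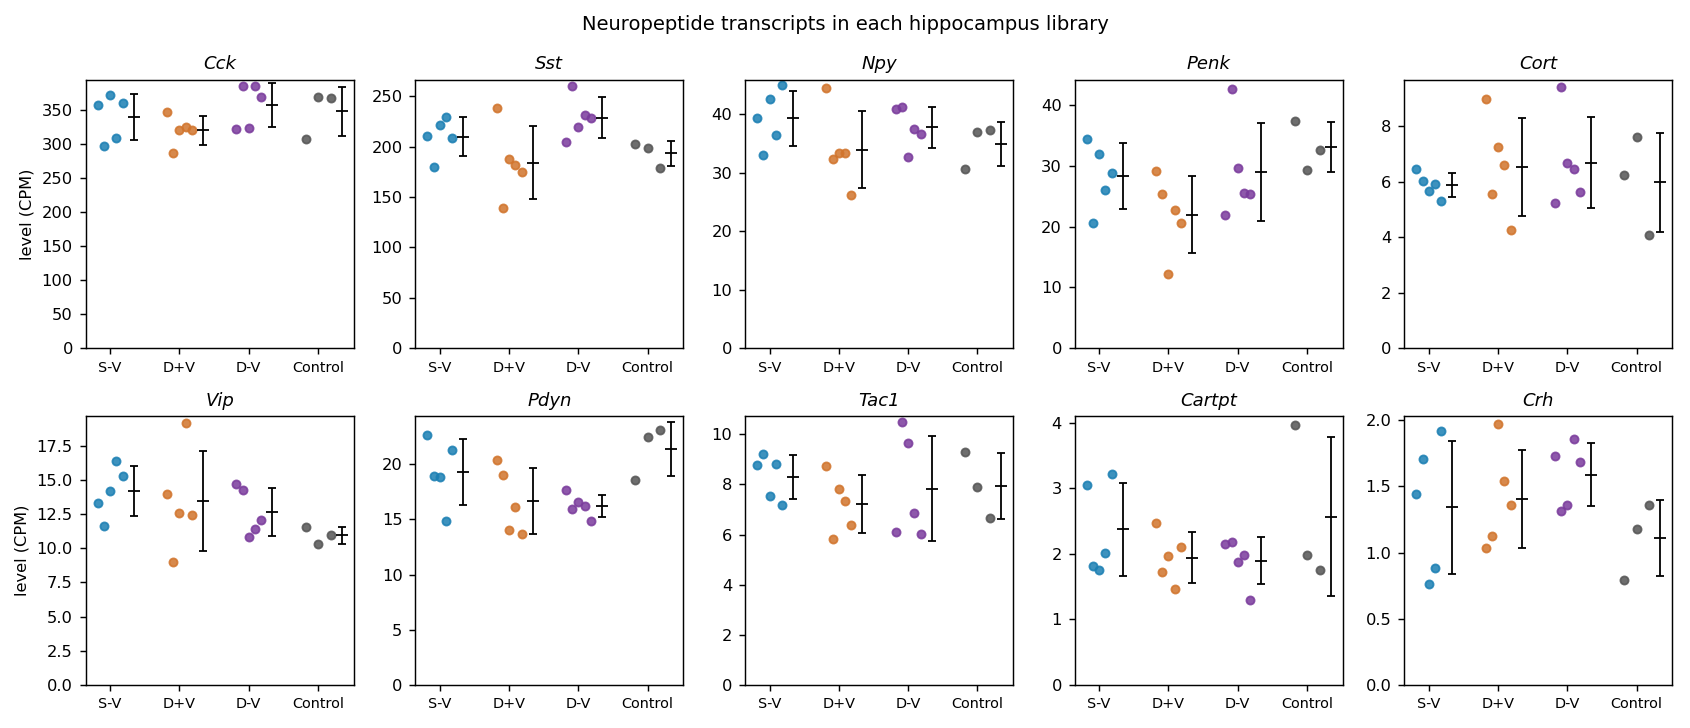
Level of each neuropeptide transcript in CPM, with a point for each library and, beside the points, the mean and SD of the group (n = 5, 5, 5 and 3). Pdyn was 14.9 to 17.6 CPM in the D-V libraries and 18.6 to 23.1 CPM in Control, with no overlap. In 5.12% of all genes these groups did not overlap, in either direction. Sst in D-V, Vip in S-V and Penk in D+V also did not overlap Control, while the other genes overlap between groups.

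None of the members passed the test in any of the 7 comparisons (edgeR's quasi-likelihood test over 14763 genes, Benjamini-Hochberg adjusted p under 0.05). Between D+V and Control the test called 0.942% of all genes and 0 of the 10 members. In each of the other comparisons it called 0% of all genes and 0 members. At an unadjusted p under 0.05, 2 members stood out between D+V and Control (17.6% of all genes), 1 between S-V and Control (13.4%), 1 between D-V and Control (6.02%), 1 between the 3 rotated groups together and Control (12.9%), 1 between D-V and S-V (6.29%), 1 between D-V and D+V (13.6%) and 0 between D+V and S-V (12.8%). DESeq2 also called 0 members throughout, beside 5.14% of all genes between D+V and Control and at most 1.88% in the other comparisons. In limma voom with quality weights, 1 member was called between D+V and Control (12.8% of all genes), 1 between D-V and D+V (5.55%) and 2 between D+V and S-V (13.2%). The comparisons share libraries, those with Control the same 3 and those between rotated groups the same 5 of each, and so are not independent.

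The direction of the members as a set differed between comparisons. Between S-V and Control 5 had positive and 5 negative log2 fold changes, with a median of 0.02 beside 0.00 over all genes (-0.22 to 0.37). Between D+V and Control 3 were positive and 7 negative, with a median of -0.09 (-0.59 to 0.33), and between D-V and Control 6 were positive and 4 negative, with a median of 0.08 (-0.43 to 0.52). Between D+V and S-V 8 of 10 were negative, with a median of -0.20 beside -0.005 over all genes and a range of -0.36 to 0.15. Between D-V and D+V 7 were positive and 3 negative, with a median of 0.14 beside 0.01 over all genes (-0.09 to 0.39). Between D-V and S-V 5 were positive and 5 negative, with a median of -0.01.

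**Figure D3:**
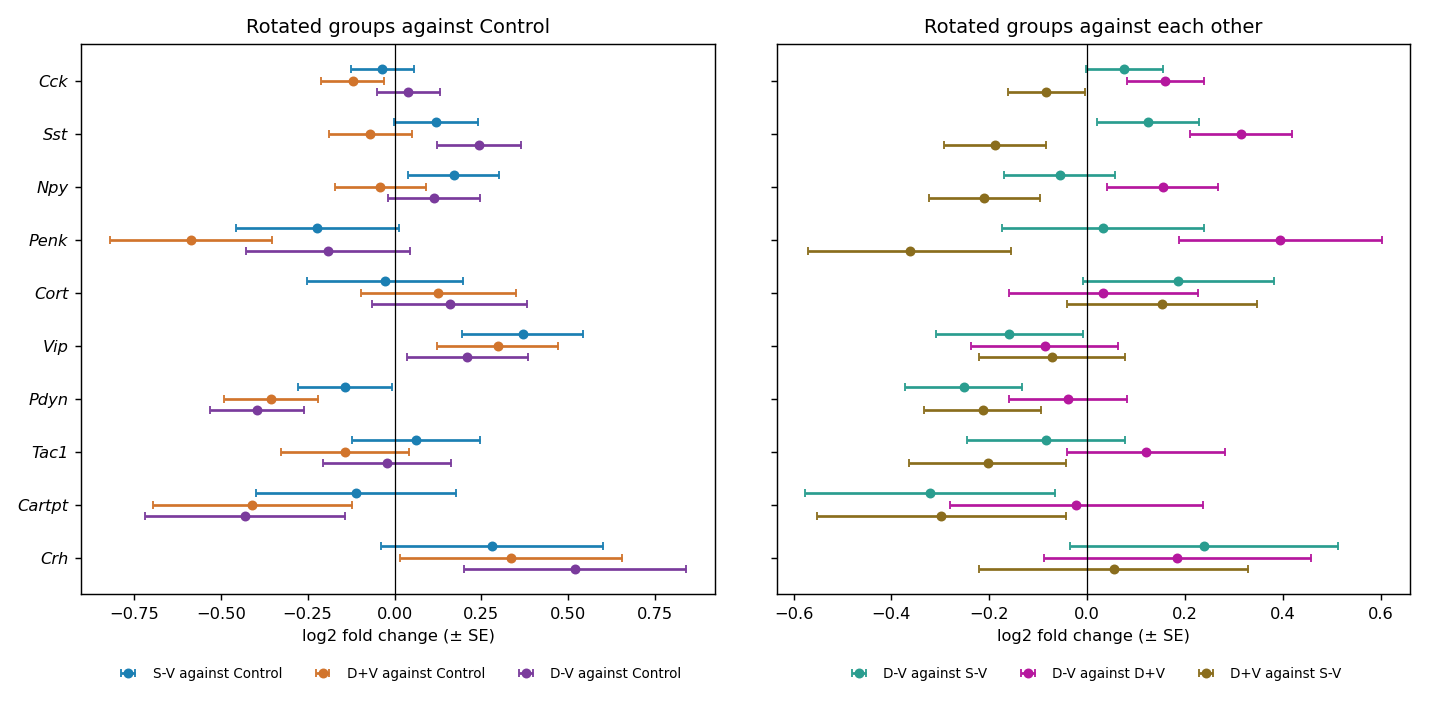
Log2 fold change of each neuropeptide transcript with its SE from the edgeR fit, in the 3 rotated groups against Control (left) and between rotated groups (right). Pdyn was negative and Vip positive in all 3 comparisons with Control, and Sst was positive in D-V against each of the other groups, though none was called.

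Sst encodes somatostatin, the peptide of dendrite-targeting interneurons. It measured 210.4, 179.4, 221.2, 229.8 and 209.0 CPM in S-V, 238.5, 138.7, 187.8, 181.5 and 174.6 CPM in D+V, 205.0, 260.3, 219.4, 231.5 and 228.2 CPM in D-V, and 202.7, 198.3 and 178.7 CPM in Control. Every D-V library lay above every Control, and D+V held both the lowest library of the series and, in D+V 1, the second highest. The log2 fold change was 0.24 (SE 0.12) between D-V and Control (edgeR adjusted p = 0.827) and 0.31 (SE 0.10) between D-V and D+V (adjusted p = 0.199), with a two-sided exact permutation p of 0.0397 for D-V and D+V. Without D+V 1 the difference between D-V and D+V was 0.42 and was called (adjusted p = 0.0074), in a fit that then called 8.38% of all genes. Without D+V 2, the lowest library, it was 0.23 and was not called (adjusted p = 0.379). In 5.12% of all genes the D-V and Control libraries did not overlap, in either direction, and 2 of the 10 members, Sst and Pdyn, were among them. With the GC and length trends of each library removed, the D-V libraries spanned 191.9 to 276.6 CPM and the Controls 183.7 to 203.1 CPM, with overlap, and the difference between D-V and D+V was 0.22.

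Npy, co-expressed with Sst in many hilar interneurons and made by neurogliaform and ivy cells, measured 39.5, 33.0, 42.6, 36.5 and 45.0 CPM in S-V, 44.4, 32.4, 33.3, 33.5 and 26.1 CPM in D+V, 40.9, 41.2, 32.6, 37.5 and 36.6 CPM in D-V, and 30.6, 37.0 and 37.3 CPM in Control. All groups overlapped, and D+V 1 was again far above the other D+V libraries. The largest of its fold changes was between D+V and S-V, at -0.21 on the log2 scale (SE 0.11, edgeR adjusted p = 0.442). Without D+V 1 it was -0.33 (adjusted p = 0.0422), where 10.1% of all genes were called. Sst in the same comparison was -0.19 (adjusted p = 0.45) with D+V 1 and -0.30 (adjusted p = 0.0366) without it. With D+V 1 in the fit, edgeR called 0 genes between these groups, DESeq2 148 and limma voom 1942, and limma voom also called Npy.

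Vip encodes the peptide of interneurons that mainly inhibit other interneurons. It measured 13.3, 11.6, 14.2, 16.4 and 15.3 CPM in S-V, 14.0, 9.02, 12.6, 19.2 and 12.4 CPM in D+V, 14.7, 14.3, 10.8, 11.4 and 12.1 CPM in D-V, and 11.6, 10.3 and 10.98 CPM in Control. The S-V libraries all lay above the Controls, if only just at the lower end, which 12.4% of all genes also showed in either direction in that comparison. The log2 fold change was 0.37 (SE 0.17, edgeR adjusted p = 0.367, exact two-sided permutation p = 0.0357). Vip has the lowest transcript GC content of the 10, at 42.2%, and with the GC and length trends of each library removed the fold change was 0.20 and the groups overlapped, at 11.3 to 15.3 CPM in S-V and 10.5 to 12.6 CPM in Control.

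The other interneuron peptides differed little between groups. Cck, the peptide of CB1-bearing basket cells, averaged 338.6 ± 33.7 CPM in S-V, 319.5 ± 21.5 in D+V, 356.8 ± 31.8 in D-V and 347.2 ± 35.6 in Control (SD, n = 5, 5, 5 and 3), and no fold change exceeded 0.16 on the log2 scale in size. Cort, a relative of somatostatin that acts on the same receptors, averaged 5.88 ± 0.434 CPM in S-V, 6.53 ± 1.78 in D+V, 6.68 ± 1.64 in D-V and 5.99 ± 1.79 in Control. Tac1 averaged 8.30 ± 0.890 CPM in S-V, 7.21 ± 1.15 in D+V, 7.83 ± 2.09 in D-V and 7.95 ± 1.32 in Control. For these 3 genes all groups overlapped in every comparison.

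Crh, which hippocampal interneurons release under stress, averaged 1.34 ± 0.506 CPM in S-V, 1.41 ± 0.371 in D+V, 1.59 ± 0.240 in D-V and 1.11 ± 0.290 in Control. The D-V libraries, at 1.31 to 1.86 CPM, overlapped the Controls, at 0.792 to 1.36 CPM. The log2 fold change between D-V and Control was 0.52 with an SE of 0.32 (edgeR adjusted p = 0.855), a difference that did not pass the test at this depth.

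Pdyn had the lowest p of the members in 3 of the 4 comparisons with Control. It measured 22.7, 19.0, 18.9, 14.8 and 21.3 CPM in S-V, 20.4, 19.0, 14.1, 16.2 and 13.7 CPM in D+V, 17.6, 15.9, 16.6, 16.2 and 14.9 CPM in D-V, and 18.6, 22.4 and 23.1 CPM in Control. All 5 D-V libraries lay below the lowest Control, and D-V was the tightest group, with an SD of 1.01 CPM. These groups did not overlap in 5.12% of all genes, in either direction. Fewer cells of a type and less RNA per cell cannot be told apart in bulk tissue, for Pdyn as for every other member. The log2 fold change between D-V and Control was -0.40 (SE 0.14, edgeR adjusted p = 0.71), and the exact two-sided permutation p of 0.0179 is the smallest that 5 against 3 libraries can give. With the GC and length trends removed it was -0.37, and the groups then overlapped, at 15.3 to 18.2 CPM in D-V and 17.4 to 24.2 CPM in Control.

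Between D+V and Control, Pdyn had a log2 fold change of -0.36 (SE 0.14, edgeR adjusted p = 0.177, exact permutation p = 0.107), and D+V 1 and 2 overlapped the Controls. Without D+V 1 it was -0.44 and was called (adjusted p = 0.0439), along with 8.58% of all genes. Without D+V 5 it was -0.29 and was not called (adjusted p = 0.319). S-V libraries, at 14.8 to 22.7 CPM, overlapped the Controls, with a log2 fold change of -0.14 (SE 0.14, adjusted p = 0.681). Between D-V and S-V it was -0.25 (SE 0.12, adjusted p = 0.792, exact permutation p = 0.0873). Libraries did not overlap in 2.05% of all genes between D-V and S-V, in 1.58% between D-V and D+V and in 1.21% between D+V and S-V, and no member was among them in any of the 3. For the 3 rotated groups together against Control, Pdyn had -0.30 (SE 0.12, adjusted p = 0.276, exact permutation p = 0.0441).

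Penk, the precursor of the enkephalins, varied more than most genes of like level. It measured 34.4, 20.6, 31.9, 26.0 and 28.9 CPM in S-V, 29.1, 25.4, 12.2, 22.7 and 20.5 CPM in D+V, 21.9, 42.7, 29.6, 25.5 and 25.3 CPM in D-V, and 37.4, 29.3 and 32.6 CPM in Control. The 5 D+V libraries lay below the lowest Control by a small margin, and 7.63% of all genes did not overlap in this comparison. The log2 fold change between D+V and Control was -0.59 (SE 0.23, edgeR adjusted p = 0.203, exact permutation p = 0.0536). With the trends removed it was -0.49 and the groups still did not overlap, at 13.9 to 27.2 CPM in D+V and 27.6 to 35.3 CPM in Control. Its SD within groups was 0.363 on the log2 scale, above 97% of the 500 genes nearest in level, whose median was 0.143. The SD was as large in the much rarer Crh (0.386) and Cartpt (0.38), which lay at the 28.2th and 48.4th percentile of genes of their level. Penk shares 233 exonic bases with A830012C17Rik on the opposite strand, and whether counting used strand is not stated. In the GENCODE annotation no other member shares exonic bases with another gene.

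Cartpt measured 1.75 to 3.21 CPM in S-V (median 2.01), 1.46 to 2.47 in D+V (median 1.97), 1.297 to 2.18 in D-V (median 1.98) and 3.96, 1.99 and 1.75 CPM in Control. Its log2 fold changes of -0.41 between D+V and Control and -0.43 between D-V and Control (SE 0.29 each, edgeR adjusted p = 0.48 and 0.864) rested on Control 1. Without that library they were 0.05 and 0.03.

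Markers of the cells that make these peptides were set beside them as lists. Of 15 dentate granule cell markers, 4 had positive and 11 negative log2 fold changes between D-V and Control (median -0.13), 9 and 6 between D+V and Control (median 0.02), and 10 and 5 between S-V and Control (median 0.07), with 0 called. Their summed level was 1068 to 1276 CPM in D-V and 968.9 to 1554 CPM in Control. C1ql2, a synaptic organiser of mossy fibres, averaged 89.3 ± 8.43 CPM in D+V and 123.8 ± 28.0 CPM in Control (log2 fold change -0.47, edgeR adjusted p = 0.131), and the granule cell kinase Plk5 averaged 18.3 ± 4.33 CPM in D+V and 27.2 ± 8.08 CPM in Control (-0.57, adjusted p = 0.164). Across the 18 libraries Pdyn followed the granule cell score (Pearson r = 0.62, Spearman rho = 0.68, permutation p = 0.00652 and 0.00293), and over the 60 relations between members and lists the adjusted p was 0.143 and 0.0879. Without the 2 libraries farthest from the median r was 0.68, and with group means removed it was 0.61.

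Of 23 interneuron markers, 14 were positive and 9 negative between D-V and Control (median 0.08), 13 and 10 between D+V and Control (median 0.10), and 10 and 13 between S-V and Control (median -0.02), with 0 called. Their summed level was 1485 to 1774 CPM in S-V, 1496 to 1969 in D+V, 1656 to 1843 in D-V and 1535 to 1822 in Control. Htr3a, the serotonin receptor of Vip and Cck interneurons, averaged 15.1 ± 2.12 CPM in D-V and 10.3 ± 1.65 CPM in Control (log2 fold change 0.55, edgeR adjusted p = 0.71), and Maf, a regulator of interneuron development, averaged 20.2 ± 2.10 CPM in D+V and 15.9 ± 0.844 CPM in Control (0.34, adjusted p = 0.0749). Pdyn ran against the interneuron score (r = -0.69, rho = -0.71, permutation p = 0.00185 and 0.00135, adjusted p = 0.111 and 0.081), with r = -0.66 without the 2 farthest libraries. So did Npy (r = -0.55, rho = -0.58, permutation p = 0.0179 and 0.013, adjusted p = 0.215 and 0.159). With the GC and length trends removed, r was -0.55 for Pdyn and -0.05 for Npy. Of the other interneuron peptides, Cck had r = -0.41 with this score, Sst 0.17, Vip 0.19 and Cort 0.18. Of 9 mossy cell markers 4 were positive and 5 negative between D+V and Control, among them Calcrl at 8.12 ± 1.04 CPM in D+V and 5.51 ± 0.478 CPM in Control (0.56, adjusted p = 0.0527) and Glipr1 at 1.94 ± 0.685 CPM in D+V and 1.15 ± 0.406 CPM in Control (0.73, adjusted p = 0.291).

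Markers of neighbouring regions that also make these peptides varied between libraries. The 24 thalamus and habenula markers summed to 436.1 to 492.9 CPM in S-V, 428.9 to 498.5 in D+V, 417.9 to 489.9 in D-V and 500.4 to 580.8 in Control, so that every rotated library lay below every Control. Of the 23 tested, 19 were negative between S-V and Control (median -0.37), 19 between D+V and Control (median -0.23) and 21 between D-V and Control (median -0.66). Gbx2 and Pou4f1, which define these nuclei, were at 0 in 3 and 5 of the 18 libraries. Pdyn had r = 0.56 with their score (rho = 0.53, permutation p = 0.0165 and 0.0265, adjusted p = 0.215 and 0.199), and 0.16 with group means removed. The 18 striatum markers, of a region rich in Penk, Pdyn and Tac1, summed to 309.0 to 426.2 CPM in D+V and 340.5 to 413.3 CPM in Control, with 6 of the 16 tested positive and 10 negative (median -0.30). The Controls lay far apart in their striatum score, at 0.782 in Control 1, 0.021 in Control 2 and -0.401 in Control 3. The D+V libraries lay between, at -0.353 to 0.397. Penk had r = 0.51 with the striatum score (rho = 0.51, permutation p = 0.0306 and 0.0308, adjusted p = 0.23 and 0.205). Its r was 0.43 without the 2 farthest libraries and 0.39 with the GC and length trends removed. Tac1 had r = 0.47 with that score (permutation p = 0.0478, adjusted p = 0.26) and Pdyn -0.05. With the striatum score, the relation largest in size was that of Crh, at r = -0.61 (permutation p = 0.00715, adjusted p = 0.143). The part of either region in the values of Pdyn and Penk was not tested. Among the most abundant genes of these lists were Calb2, Prkcd and Zic1 for the thalamus and habenula, with Zic1 at 7.42 to 87.6 CPM, and Ppp1r1b, Pde10a, Rasd2 and Foxp1 for the striatum, with Ppp1r1b at 56.8 to 160.3 CPM. Some genes stand in several lists, among them Calb2, also an interneuron and mossy cell marker here, and Prkcd, also an amygdala marker. The scores of these lists are therefore not separate.

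The remaining regional lists gave 0 calls as well. Of 18 neocortex and subiculum markers, led by Lmo4, Mef2c, Fn1 and Tle4, 14 were negative between D+V and Control (median -0.04) and 11 between D-V and Control (median -0.04). Of 10 amygdala markers, led by Lypd1, Etv1, Sema3e and Prkcd, 5 were negative between D+V and Control (median -0.11) and 4 between D-V and Control (median 0.03). The 18 choroid plexus markers, led by Ttr, Enpp2, Kl and Clic6, all had positive log2 fold changes to Control, with a median of 1.40 for S-V, 1.57 for D+V and 1.99 for D-V, while 2 libraries of S-V, 1 of D+V and 2 of D-V were those above 5000 CPM. Their summed level was 351.1 to 5822 CPM in S-V (median 1131), 270.2 to 12570 in D+V (median 347.4), 295.1 to 14440 in D-V (median 384.2) and 263.7 to 1584 in Control (median 666.8), so that the median library of D+V and of D-V lay below that of Control.

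**Figure D4:**
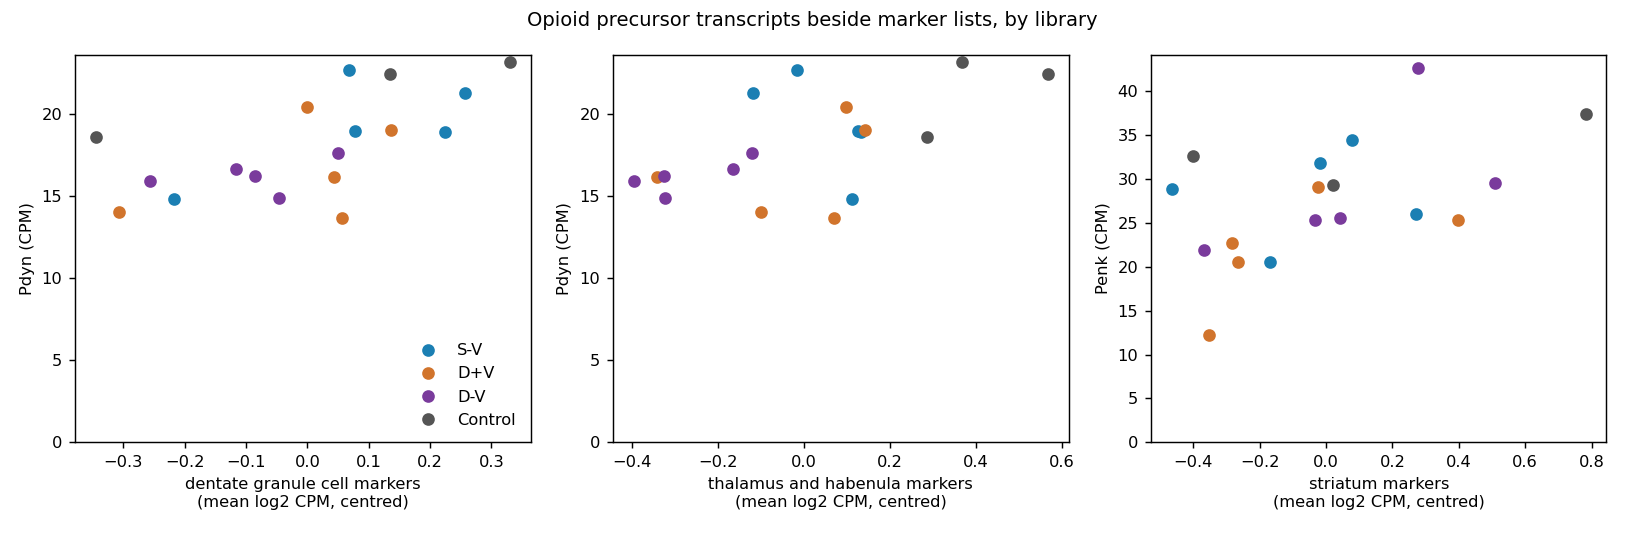
Pdyn in CPM against the scores of dentate granule cell markers (left) and thalamus and habenula markers (middle), and Penk in CPM against the score of striatum markers (right), with a point for each library; a score is the mean log2 CPM of the list minus its mean over libraries. Pearson r is 0.62, 0.56 and 0.51, and the 3 Control libraries lie highest on the thalamus axis, at 0.29 to 0.57.

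The genes that make, store and sense the peptides were set beside the members as lists too. None of 20 receptors and binding proteins, 13 processing enzymes and 8 granins and dense core proteins was called in any comparison. Among receptors, Npy2r, the presynaptic receptor of neuropeptide Y on mossy fibres and Schaffer collaterals, averaged 64.5 ± 6.75 CPM in D-V and 50.7 ± 8.37 CPM in Control (log2 fold change 0.35, edgeR adjusted p = 0.727). Oprd1, the delta opioid receptor that binds enkephalin, averaged 8.35 ± 2.79 CPM in D+V and 5.76 ± 0.718 CPM in Control (0.53, adjusted p = 0.264). Both were positive in each rotated group against Control. Between S-V and Control 7 receptors were positive and 13 negative (median -0.17), between D+V and Control 6 and 14 (median -0.03), and between D-V and Control 12 and 8 (median 0.02).

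Pcsk1, the convertase that cuts many of these precursors, averaged 23.3 ± 5.24 CPM in D+V, 21.9 ± 3.22 CPM in D-V and 16.7 ± 2.30 CPM in Control. Its log2 fold change to Control was 0.47 in D+V (edgeR adjusted p = 0.161) and 0.39 in D-V (adjusted p = 0.808). Cadps, which primes dense core vesicles for release, averaged 270.7 ± 26.4 CPM in D+V and 233.7 ± 7.63 CPM in Control (0.21, adjusted p = 0.188). Of the 13 enzymes and release factors, 11 were positive and 2 negative between D-V and Control (median 0.04), and 8 and 5 between D+V and Control (median 0.02). Sv2c, a vesicle protein, averaged 33.1 ± 3.13 CPM in S-V, 33.3 ± 3.25 in D+V, 32.7 ± 4.38 in D-V and 42.0 ± 5.05 in Control (-0.34, -0.33 and -0.36, adjusted p = 0.202, 0.123 and 0.71). Ptprn, a dense core vesicle membrane protein, averaged 424.6 ± 20.8 CPM in S-V and 495.1 ± 25.1 CPM in Control (-0.22, adjusted p = 0.246).

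Of 24 other neuropeptide genes, 17 were tested and 0 called, with 14 of 17 negative between S-V and Control (median -0.18), 13 between D+V and Control (median -0.12) and 10 between D-V and Control (median -0.18). Trh, the precursor of thyrotropin-releasing hormone, was near the limit of detection, at 0.126 to 0.701 CPM in S-V, 0.0394 to 0.592 in D+V, 0.0648 to 0.582 in D-V and 0.389 to 2.03 CPM in Control, with adjusted p of 0.259, 0.107 and 0.71 in edgeR. Oxt, the oxytocin precursor, had 21 counts summed over S-V, 17 over D+V, 0 over D-V and 34 over Control, and was at 0 in 10 of 18 libraries. Hypothalamus markers, which include Oxt and are led by Hdc, Pomc, Nkx2-1 and Pmch, summed to at most 10.9 CPM in rotated groups and to 4.57 to 14.0 CPM in Control.

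Activity-regulated genes were listed because neuropeptide transcription is known to follow firing. Of 24, 0 were called in any comparison, and 17 were negative and 7 positive between D+V and Control (median -0.23), 16 and 8 between D-V and Control (median -0.09), and 8 and 16 between S-V and Control (median 0.03). Egr2, an immediate early transcription factor, averaged 1.83 ± 0.845 CPM in D+V and 3.63 ± 0.414 CPM in Control (log2 fold change -0.99, edgeR adjusted p = 0.0967). Npas4, which is induced by depolarisation and regulates inhibitory synapses, averaged 9.37 ± 1.21 CPM in D+V and 14.9 ± 3.45 CPM in Control (-0.67, adjusted p = 0.123). In the same comparison 7 of the 10 members were negative, with log2 fold changes of -0.59 in Penk and -0.36 in Pdyn. The other 3, Vip, Crh and Cort, were at 0.30, 0.33 and 0.13. The relation of the members to the activity-regulated genes was not tested.

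Members were also correlated with each other across libraries, and none of 45 pairs passed correction. Tac1 and Cort had r = 0.65 (rho = 0.68, permutation p = 0.00277 and 0.00228, adjusted p = 0.0981 and 0.0513), and r = 0.57 without the 2 farthest libraries. Npy and Cck had r = 0.61 (rho = 0.70, permutation p = 0.00654 and 0.00203, adjusted p = 0.0981 and 0.0513), and 0.66 without the 2 farthest. Sst and Cck had r = 0.62 (rho = 0.58, permutation p = 0.00517 and 0.0134, adjusted p = 0.0981 and 0.151), which was 0.38 without the 2 farthest libraries and so rests partly on them. Npy and Sst had r = 0.58 (rho = 0.60, permutation p = 0.012 and 0.00903, adjusted p = 0.132 and 0.135). Penk and Crh ran against each other, at r = -0.52 (rho = -0.54, permutation p = 0.0265 and 0.0236, adjusted p = 0.184 and 0.212), and -0.50 without the 2 farthest. Penk and Pdyn, both opioid precursors, had r = 0.50 (rho = 0.49, permutation p = 0.0296 and 0.0425, adjusted p = 0.184 and 0.273), and 0.59 without the 2 farthest.

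The genes most like each member over the 18 libraries were found among 12764 genes by Pearson r of log2 CPM, as a description of libraries that share depth and composition effects. They included Tmem59l (r = 0.89) and Insyn1 for Cck, Mterf2 (0.91), Ddx1 and AC115631.1 for Npy, Gpank1 (0.87), Cend1 and Ttc9b for Sst, and Ppp1r2 (0.89), Kbtbd7 and Mal2 for Vip. For Pdyn they were Il20rb (0.87), Robo3 and Htra4, and for Penk Naa10 (0.83), Dhps and Smarcb1. For the rarer transcripts they were Ccdc174 (0.84), Shisa4 and Pck2 for Cort, Mrpl16 (0.78), Afg1l and Slc25a38 for Tac1, Ilk (0.76), Selenoh and Ei24 for Cartpt, and Cox15 (0.75), Lhx9 and Syna for Crh. Removing the GC and length trends left r = 0.91 for Cck and Tmem59l, 0.84 for Pdyn and Il20rb and 0.45 for Penk and Naa10.

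**Figure D5:**
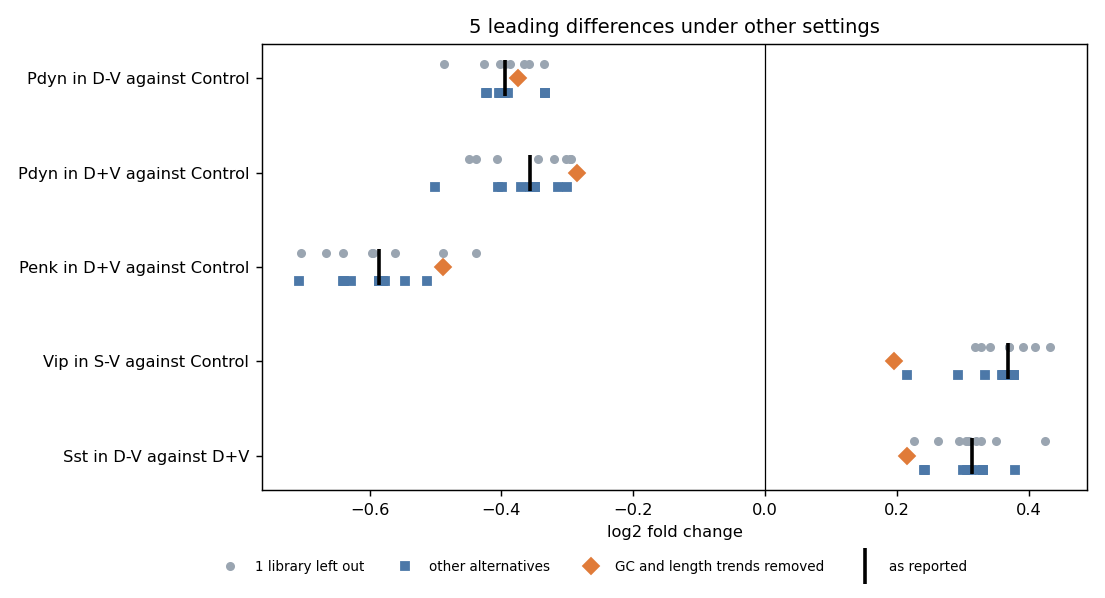
Log2 fold changes of 5 leading differences as reported (black), with GC and length trends removed (orange), with each library of the groups compared left out (grey) and under other normalisations, filters and tests (blue). All values stay on their side of 0, Pdyn between D-V and Control from -0.49 to -0.33, while Vip between S-V and Control is lowest with the trends removed, at 0.20.

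The 7 differences with an unadjusted p under 0.05 kept their sign in all 153 alternative values. They were picked by p from these same libraries, so a kept sign is no independent support. Pdyn between D-V and Control ranged from -0.49 to -0.33 and never passed the adjusted threshold. Pdyn between D+V and Control ranged from -0.50 to -0.29, Penk from -0.71 to -0.44 in that comparison, and Sst between D-V and D+V from 0.22 to 0.42. Without the 5 libraries rich in choroid plexus markers, an alternative chosen after seeing the data, Pdyn was -0.40 between D-V and Control, Penk was -0.64 between D+V and Control and Sst was 0.24 between D-V and D+V.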

How the data were processed

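Polyadenylated RNA of 18 mouse hippocampus libraries was sequenced on an Illumina NovaSeq instrument after an NEBNext Ultra preparation, per the labels' protocols. The authors deposited a table of estimated counts per gene, of which 6.80% to 8.05% per library were not whole. The tools were StringTie 1.3.1, HISAT2, DESeq2 and Bowtie2 2.2.8, per the submitters' processing notes, which name no build, annotation or strand setting in the sources used here. Symbols were found for 21973 of 22063 identifiers.

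Counts were rounded, filtered with filterByExpr (14763 genes with 99.974% of the counts) and scaled by TMM. The main test was edgeR 4.0.16's robust quasi-likelihood F test (R 4.3.3), fitted to the 4 group means of all 18 libraries (common biological variation 15.4%). Calls needed an adjusted p under 0.05 (Benjamini-Hochberg over all genes). The script was tested on simulated data. Levels are CPM on TMM library sizes; scores used a prior count of 2. Correlation p-values used 100000 permutations. Alternatives were DESeq2 1.42.0, limma 3.58.1 voom, other scalings and filters, the groups compared alone, a replicate block, removal of GC and length trends per library (transcripts of GENCODE), an exact permutation test and leaving out each library. PCR copies were not marked, so counts are not independent molecules.

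Named besides the members were the 2 genes of smallest p over the comparisons with Control from each pathway list, the 4 most abundant genes of each list of other tissue, and the 3 genes most like each member. The members and lists were chosen with earlier results of these data known. The dentate granule cell list was added to the correlations after seeing the data. Results for some genes that these rules select are left out of the text.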

Additional observations from a re-analysis of the deposited data

How the results depend on the processing

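No result reversed its sign among the 7 differences with an unadjusted p under 0.05, which were picked from the same libraries. The number of members called changed in 3 comparisons. With limma voom it was 1 between D+V and Control (Pdyn, with 12.8% of all genes called), 1 between D-V and D+V (Sst, 5.55%) and 2 between D+V and S-V (Npy and Pdyn, 13.2%). Leaving out each library in turn gave 0 to 1, 0 to 1 and 0 to 2 members in these comparisons, where each of the higher counts came without D+V 1; the cause was not tested. With the replicate block it was 0 members in every comparison; same-numbered libraries had deviations correlated at -0.45 to 0.34 over 24 pairs, 9 of them over 0.1, so that the numbers were not taken to pair the libraries. Of the 63 other fold changes, 90 of 1818 alternative values changed sign. The rotated groups together could not be fitted to only the groups compared, since that is the same fit. Over all genes, DESeq2 called 759 between D+V and Control, against 139 in edgeR. That edgeR count was 0 with the GC and length trends removed, 0 with only the groups compared and 4 with the replicate block. Leaving out a library gave from 0 without Control 1 to 1260 without D+V 1. Cartpt and Crh rest on 20 to 90 and 13 to 39 counts per library, and 3 Controls limit every comparison with them.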
